A study of Mus musculus and Homo sapiens with 14 samples.

Results

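The genes described here encode the proteins of the cytosolic ribosome of the mouse. They were taken by symbol alone, as Rpl and Rps genes of the large and the small subunit, Rplp0, Rplp1 and Rplp2 of the stalk, and Rpsa, leaving out entries named as pseudogenes and the S6 kinases. The rule found 89 of the 35288 gene identifiers in each mouse table, 53 of the large and 36 of the small subunit. Of these, 83 were annotated as protein-coding and 6 as pseudogenes (Rpl6l, Rpl32l, Rps3a2, Rps3a3, Rps4l and Rps12l1). Genes such as Fau, Rack1 and Rpl36al, which encode ribosomal proteins under other kinds of names, were kept apart.

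Every ribosomal protein is needed in about equal copy number, and its genes are among the most transcribed of a growing cell. Their messenger RNAs begin with a run of pyrimidines, the terminal oligopyrimidine (TOP) tract, through which LARP1 and the kinase complex mTORC1 set how much of them is translated. The genes have also left many processed pseudogenes, intronless copies of the messenger RNA inserted elsewhere in the genome, so that short reads from a gene can match several places.

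The study grew 3 cell lines alone or separated from another line by a porous membrane. RNA levels came from 14 libraries of poly(A)-selected RNA, of which the 10 mouse libraries are used here. Oli-neu, a murine oligodendrocyte precursor line, was grown alone, beside MB1 or beside D341, a human Group 3 medulloblastoma line. MB1, derived from SHH medulloblastomas of Atoh1-cre:SmoM2 mice at postnatal day 12, was grown alone or beside Oli-neu. In those mice the Atoh1 promoter drives the recombinase, which switches on an active form of Smoothened in the granule cell lineage, and MB1 carries this in every group. All cultures had 20 ng/mL of EGF and 20 ng/mL of bFGF. The co-cultures used inserts of 30 mm with pores of 0.4 µm, and the labels do not say that the cultures grown alone had inserts. Each line is a single line, so a group holds cultures and not separate animals. Each of the 5 mouse groups had 2 libraries, given as biological replicates and numbered 1 and 2.

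The levels are TPM, a scale on which each library sums to the same total and transcript length is taken out. The files hold no counts, so the depth of each library is unknown and no counting interval is given. Markers of the labelled cells were checked. Sox10 of the oligodendrocyte lineage lay between 171 and 235 TPM in Oli-neu and at most 0.882 TPM in MB1. Zic1 of the granule lineage lay between 63.7 and 125 TPM in MB1 and at most 0.0322 TPM in Oli-neu, while Atoh1 and Gli1, which define granule precursors with an active Hedgehog pathway, were at or near 0 in MB1 (at most 0.0143 and 0.178 TPM). The list of 9 oligodendrocyte lineage markers did not separate the lines as labelled, since it summed to 628 to 699 TPM in Oli-neu alone and to 992 to 1163 TPM in MB1 alone. Olig2, one of the 9, was at 49.2 to 76.0 TPM over the Oli-neu libraries and at 151 to 246 TPM over the MB1 libraries. In bulk RNA, fewer cells of a type and less RNA per cell cannot be told apart.

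Pairs of sequence stretches are shown first, because they decide how the levels below can be read. Each compares the coding sequence of a ribosomal protein gene with a pseudogene copy, and capitals mark the bases that differ. The stretch is the 75 bases with the most differences, numbered from the first base of the start codon. Rps27 (chr3:90212522-90213651, minus strand, 4 exons in GENCODE M21 on GRCm38) and its copy Gm17241 (chr15:99706562-99706813, minus strand, a processed pseudogene without introns) differ at 2 of 252 aligned bases, both of them within bases 1 to 75.
Rps27: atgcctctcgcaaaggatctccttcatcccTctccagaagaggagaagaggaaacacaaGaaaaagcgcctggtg
Gm17241: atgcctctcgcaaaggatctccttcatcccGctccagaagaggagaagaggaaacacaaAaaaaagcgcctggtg
Rps28 (chr17:33819027-33824562, minus strand) and Gm10443 (chr6:86334031-86334240, plus strand) are the same over all 207 aligned bases, so the first 75 bases hold no capital.
Rps28 and Gm10443: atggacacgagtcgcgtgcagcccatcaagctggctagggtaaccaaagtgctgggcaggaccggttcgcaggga
Rps3a1 (chr3:86137940-86142702, minus strand) and Rps3a3 (chr13:108670603-108671397, plus strand) differ at 9 of 792 aligned bases, and bases 186 to 260 hold 2 of them.
Rps3a1: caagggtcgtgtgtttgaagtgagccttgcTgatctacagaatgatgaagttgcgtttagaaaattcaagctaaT
Rps3a3: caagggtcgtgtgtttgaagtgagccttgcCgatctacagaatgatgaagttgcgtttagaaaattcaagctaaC
Rps3a1 and Rps3a2 (chr14:88123017-88123808, minus strand) differ at 4 of 792 bases, 2 of them within bases 594 to 668.
Rps3a1: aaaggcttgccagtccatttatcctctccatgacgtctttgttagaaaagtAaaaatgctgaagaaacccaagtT
Rps3a2: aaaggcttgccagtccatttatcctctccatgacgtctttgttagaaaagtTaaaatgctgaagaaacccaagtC
Rpl35a (chr16:33056453-33060189, plus strand) and Rpl35a-ps3 (chr17:29136972-29137304, minus strand) differ at 1 of 330 bases, the last base of bases 82 to 156.
Rpl35a: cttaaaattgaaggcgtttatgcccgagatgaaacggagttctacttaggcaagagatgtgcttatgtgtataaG
Rpl35a-ps3: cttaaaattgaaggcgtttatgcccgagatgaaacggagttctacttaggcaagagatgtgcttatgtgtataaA

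Such copies are the rule among these genes. Of 12729 pseudogenes in the tables, 1040 matched a protein-coding member at 90% identity or more over at least 50% of the copy, a median of 9 for each gene and up to 82 for Rpl7a. Only 3 of the 83 coding members had no copy. The longest-coding transcript of a member had a median of 52.1% of its stretches of 75 bases (the number of sequencing cycles) found in no other gene. This share ran from 1.48% for Rps27 to 100%, and it was under 25% for 14 members and at least 75% for 19. The copies are also annotated as genes, and their rows hold TPM. The copy Gm10443 was at a mean of 20073 TPM over the 10 libraries, while Rps28, with the same coding sequence, lay between 867 and 1719 TPM. For this reason the level of a gene row and the sum of the gene and its copies are given side by side below. The sum counts reads that may come from a copy, and the gene row may lack reads given to a copy. The files do not tell these apart.

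Ribosomal protein genes took a large share of all TPM, larger in Oli-neu than in MB1. The 89 genes summed to 18.2% and 15.5% of TPM in Oli-neu alone, to 17.1% and 15.8% beside MB1 and to 17.99% and 15.99% beside D341. In MB1 they summed to 11.4% and 12.1% alone and to 12.7% and 12.8% beside Oli-neu. Both MB1 libraries from co-culture were thus above both from MB1 alone, whereas the 3 Oli-neu groups overlapped. With the copies added, the 6 Oli-neu libraries reached 38.4% to 42.1%. The MB1 libraries reached 24.98% and 24.8% when grown alone and 27.5% and 27.2% in co-culture, again without overlap. Most of the copies' share lay on copies under 300 bases. These held 14.6% to 16.3% of TPM in the Oli-neu libraries and 8.72% to 10.7% in the MB1 libraries. The summed large subunit exceeded the small subunit in every library, with ratios of 1.54 to 1.705 over the Oli-neu libraries and of 1.37 to 1.45 over the MB1 libraries. These sums hold 53 large and 36 small subunit genes. The median coding gene of the large subunit was below that of the small one in every MB1 library. In MB1 alone the medians were 888 against 1088 TPM and 884.5 against 1130 TPM. In Oli-neu the order of the medians differed between libraries. The 2 mouse tables were processed separately, so levels of the 2 lines are set side by side without a test. Mitochondrially encoded genes, which share the same total, held 1.93% to 4.53% in the Oli-neu libraries and 5.73% to 9.56% in the MB1 libraries (9.56% and 5.73% alone, 8.79% and 8.19% beside Oli-neu). Their part in the difference was not tested, and the MB1 order was the same with these genes removed from the total (means of 12.75% alone and 13.9% beside Oli-neu).

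**Figure D1:**
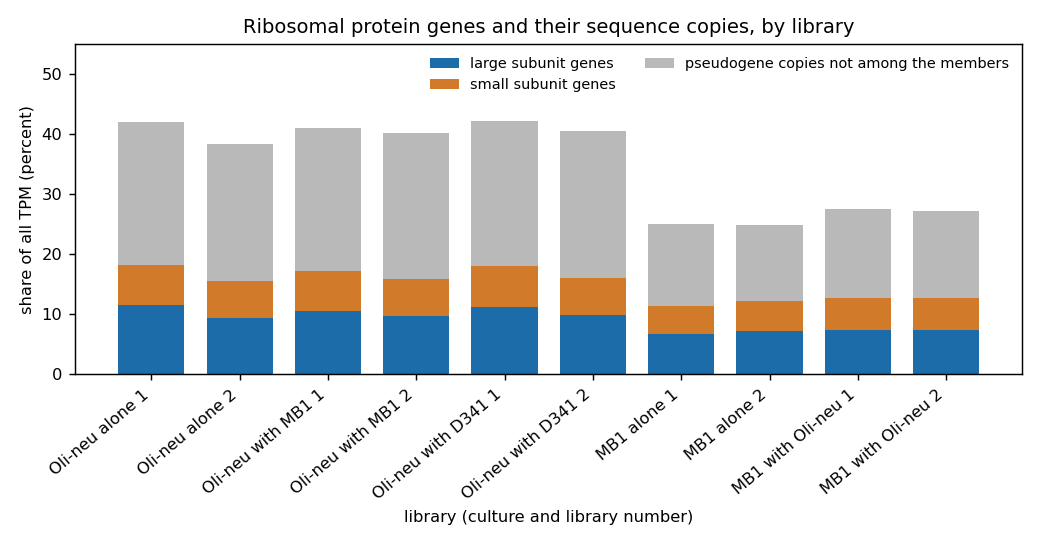
Share of all TPM in percent (vertical axis) held by large subunit genes, small subunit genes and their pseudogene copies in each of the 10 mouse libraries (horizontal axis). The 6 Oli-neu bars reach 38.4% to 42.1% and the 4 MB1 bars 24.8% to 27.5%, and the copies make up more than the genes in every bar. This rests on copies under 300 bases, which hold 14.6% to 16.3% in the Oli-neu bars and 8.72% to 10.7% in the MB1 bars.

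The level of single members ran over several orders of magnitude. On the gene rows Rpl13a was the highest in both lines, at 24989 and 19184 TPM in Oli-neu alone and 12748 and 15322 TPM in MB1 alone. L13a is a large subunit protein that can leave the ribosome to silence certain messenger RNAs in myeloid cells, and almost all of the summed level of Rpl13a and its copies was on the gene row (24993 TPM with copies in Oli-neu alone, library 1). With copies of any length summed it was not the highest, since in Oli-neu alone Rps29 (mean 26257 TPM), Rps28, Rpl38, Rpl8 and Rpl21 exceeded its mean of 22089 TPM, and in MB1 alone Rps29 (19066 TPM) and Rps28 (14393 TPM) exceeded its mean of 14037 TPM. That order rests on copies under 300 bases. With copies of at least 300 bases only, Rpl13a was again the highest in both lines. Its mean of 22089 TPM in Oli-neu alone then stood against 1352 TPM for Rps29, 2840 TPM for Rps28 and 3724 TPM for Rpl21. On the gene rows of the large subunit in Oli-neu alone Rpl13a was followed by Rpl23a, Rpl18 and Rpl6, and in MB1 alone by Rpl18, Rpl6 and Rplp1. Among the small subunit gene rows Rps15a was highest in both lines, at 10869 and 10725 TPM in Oli-neu alone and 6920 and 8432 TPM in MB1 alone. Rps12l1 and Rps25 were also among the 4 highest in Oli-neu, and Rpsa and Rps19 in MB1. Rpsa encodes a protein that is also known as the laminin receptor.

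The genes that were hardly detected are paralogues or pseudogenes. Rpl10l, the retrogene of Rpl10 that serves male germ cells, was listed at 0 in 9 libraries and at 0.250 TPM in library 1 of Oli-neu beside D341. Rpl39l, likewise a paralogue known from testis, was at 0 in the same 9 libraries and at 1.44 TPM in that one. Rpl3l, the form of striated muscle, was at most 0.180 TPM, and Rps4l and Rpl32l were at most 0.284 and 0.528 TPM. Together with Rpl6l these 6 genes did not reach 1 TPM in 2 libraries of a line. The other 83 did so in each line, 48 of the large and 35 of the small subunit, and entered the tests.

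The start of the transcript was read for the member of each subunit with the highest gene row, because the TOP tract lies there. The sequences are from RefSeq promoter entries on GRCm38.p6, from 50 bases before to 20 bases from the annotated start on the gene's strand. Capitals mark the pyrimidine run.
Rpl13a (chr7:45128726-45128795, minus strand): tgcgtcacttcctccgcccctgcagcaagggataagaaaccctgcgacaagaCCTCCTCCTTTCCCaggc
Rps15a (chr7:118116128-118116197, minus strand): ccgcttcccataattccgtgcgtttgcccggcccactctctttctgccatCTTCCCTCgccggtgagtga
The run has 14 bases in Rpl13a and 8 bases in Rps15a. A C within 5 bases of the annotated start, followed by at least 4 pyrimidines on the gene's strand, was found in 32 of 76 entries of the members (42.1%, from 64 symbols), against 6027 of all 32851 entries (18.3%). It was found in 20 of 47 large and 12 of 29 small subunit entries (42.6% and 41.4%). This is a description of letters around annotated starts, and an absent match says only that the run is not in that window.

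The first comparison asked whether Oli-neu cells differ when MB1 tumour cells grow on the other side of the membrane. On the gene rows 40 of the 83 tested members were higher and 43 lower beside MB1. The median log2 fold change was 0.00 in the large and -0.03 in the small subunit, beside -0.06 over all 12280 genes tested. No member passed limma's adjusted threshold of 0.05, and neither did any other gene (0% of all genes). At an unadjusted p under 0.05 there was 1 member, beside 747 genes or 6.08% of all. Both libraries beside MB1 were above both libraries of Oli-neu alone in 10 members, against 10.1% of all genes, and below both in 8 members, against 24% of all genes. A gene split by library number, as described below, cannot separate in this way in any Oli-neu comparison. Such genes were a larger share of the members than of all genes, so the counts and the shares are not on an equal footing. The fit held no term for the library number, so that spread also entered its SEs. The counts at an unadjusted p carry the same limit. After median-ratio rescaling the counts were 13 members above and 4 below, against 16.9% and 16.8% of all genes.

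Among the members furthest from 0 was Rpl31, a protein near the exit of the peptide tunnel. It was at 1513 and 1372 TPM in Oli-neu alone and at 2525 and 1825 TPM beside MB1 (log2 fold change 0.58, SE 0.24, limma adjusted p = 0.819), and both co-culture libraries were above both grown alone. With copies added Rpl31 summed to 4480 and 5007 TPM alone and to 7418 and 6408 TPM beside MB1, which do not overlap either. Rpl13 lay on the other side, at 1385 and 1068 TPM alone and 643 and 1050 TPM beside MB1 (-0.56, SE 0.29, adjusted p = 0.851). With copies added Rpl13 summed to 3427 and 3333 TPM alone and to 3114 and 3265 TPM beside MB1, a log2 fold change of -0.08.

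The second comparison asked the same of Oli-neu beside D341, and it uses the same 2 libraries of Oli-neu alone as the first. Again 43 members were higher and 40 lower, with medians of 0.05 in the large and -0.00 in the small subunit, while the median of all genes was -0.16. Rescaling the libraries by their median ratio brought the median of all genes to 0.00 and those of the subunits to 0.24 and 0.19. No member and no gene passed (0% of all genes), and 8 members had an unadjusted p under 0.05, beside 1684 genes or 13.7%. Both libraries beside D341 were above both grown alone in 15 members (7.12% of all genes) and below both in 12 members (44% of all genes). After median-ratio rescaling the counts were 29 members above and 4 below, against 20.2% of all genes each way.

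The 8 members went in both directions. Rpl31 was at 1513 and 1372 TPM alone and at 2808 and 2058 TPM beside D341 (log2 fold change 0.74, SE 0.24, limma adjusted p = 0.345). Rpl11, which joins Rpl5 and the 5S RNA in a particle that can bind the p53 regulator Mdm2, was at 2529 and 2516 TPM alone and at 3796 and 3145 TPM beside D341 (0.45, SE 0.15, adjusted p = 0.347). Rpl17, which lines the peptide tunnel, was at 954 and 1045 TPM alone and at 1490 and 1358 TPM beside D341 (0.51, SE 0.16, adjusted p = 0.344). In each of these 3 genes both libraries beside D341 were above both grown alone. With copies added, Rpl17 had 4428 and 2228 TPM alone and 6836 and 2697 TPM beside D341, higher beside D341 within each library number although the groups overlapped. With copies of at least 300 bases only, it had 2061 and 1897 TPM alone and 2722 and 2567 TPM beside D341. These do not overlap.

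The lower ones included Rpl10, which joins the large subunit last and contacts its catalytic centre. It was at 705 and 503 TPM in Oli-neu alone, 431 and 385 TPM beside MB1, and 248 and 421 TPM beside D341 (log2 fold change -0.88 beside D341, SE 0.31, limma adjusted p = 0.354). Only 8.14% of the 75-base stretches of Rpl10 are its own, and with copies added the values were 725 and 1190 TPM alone and 263 and 889 TPM beside D341, lower beside D341 within each library number although the groups overlapped. Rpl4 was at 1106 and 1197 TPM alone and at 789 and 937 TPM beside D341 (-0.42, SE 0.15, adjusted p = 0.351), with almost all of its summed level on the gene row. Rpl7l1, a paralogue of Rpl7, was at 35.2 and 28.8 TPM alone and at 23.7 and 22.3 TPM beside D341 (-0.45, SE 0.17, adjusted p = 0.361). Rps3a2, the copy shown above, had the smallest p, at 594 and 469 TPM alone and 303 and 342 TPM beside D341 (-0.71, SE 0.22, adjusted p = 0.328).

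The 2 co-cultures of Oli-neu were compared directly as the third comparison, which asks whether the tumour line matters. Beside D341, 55 members were higher and 28 lower than beside MB1, with medians of 0.06 and 0.05 in the large and small subunit and of -0.09 over all genes. No member and no gene passed (0% of all genes), and 0 members had an unadjusted p under 0.05, beside 630 genes or 5.13%. Libraries did not overlap in 6 members that were higher (6.6% of all genes) and 6 that were lower (28.8% of all genes). The smallest p was that of Rpl7l1, at 33.2 and 26.1 TPM beside MB1 (log2 fold change -0.34, SE 0.17, limma adjusted p = 0.839). After median-ratio rescaling the non-overlapping members were 30 higher and 1 lower, against 15.1% and 15.2% of all genes.

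In MB1 the members leaned to one side. Beside Oli-neu, 66 of 83 members were higher and 17 lower than in MB1 alone, 35 of 48 in the large and 31 of 35 in the small subunit. The median log2 fold change was 0.17 in the large and 0.18 in the small subunit, whereas the median of all 12407 genes tested was -0.17 and 8793 of these genes were lower. Without library 1 of MB1 alone the medians were 0.075 in the large and 0.14 in the small subunit. Library 2 of MB1 alone stood apart in some members, as described below, and its part in the lean was not tested. Both libraries from co-culture were above both grown alone in 39 members, against 10.9% of all genes, and below both in 2 members, Rpl10 and Rpl7l1, against 41.5% of all genes. Of the 39 members, 17 belong to the large and 22 to the small subunit. The 22 include Rps3a2, Rps3a3 and Rps12l1, annotated as pseudogenes, beside Rps3a1 and Rps12, the genes they match. No member passed limma's adjusted threshold, and no gene did (0% of all genes). At an unadjusted p under 0.05 there were 5 members, beside 1944 genes or 15.7%. With copies added, both co-culture libraries were above both grown alone in 34 of 80 tested members, against 10.6% of all genes, and below both in 2, Rpl10 and Rpl7l1, against 42% of all genes. After median-ratio rescaling, the medians were 0.37 in both subunits and 60 members did not overlap and were higher, 0 lower, against 22.9% and 22.4% of all genes.

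**Figure D2:**
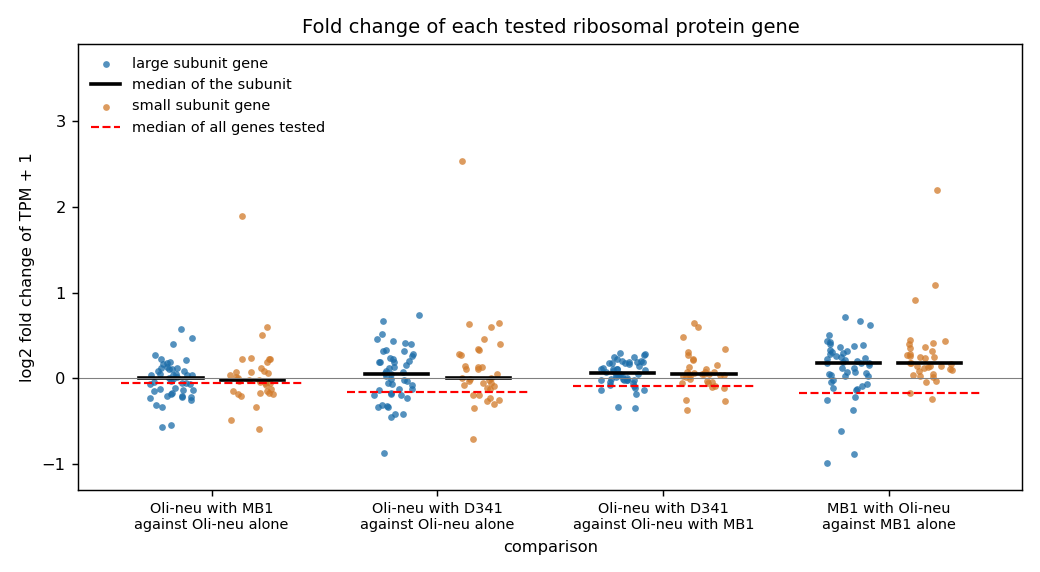
Log2 fold change of TPM + 1 (vertical axis) of each of the 83 tested members in the 4 comparisons (horizontal axis), with the large subunit in blue, the small subunit in orange, the median of each as a black bar and the median of all genes tested as a red dashed line. In MB1 the medians are 0.17 and 0.18 against -0.17 for all genes, and the far points are Rps2 in Oli-neu and Rps27 in MB1.

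The 5 members with an unadjusted p under 0.05 in MB1 were Rps12, Rpl9, Rpl39, Rps23 and Rps6. Rps12 was at 138 and 120 TPM alone and at 225 and 263 TPM beside Oli-neu (log2 fold change 0.92, SE 0.17, limma adjusted p = 0.282). Rpl9 was at 896 and 767 TPM alone and at 1232 and 1320 TPM beside Oli-neu (0.62, SE 0.17, adjusted p = 0.282). Neither pair of groups overlapped. Rps23, which reaches into the decoding centre, was at 412 and 184 TPM alone and at 595 and 577 TPM beside Oli-neu (1.09, SE 0.40, adjusted p = 0.31). Rpl39, a small protein of the peptide tunnel, was at 800 and 778 TPM alone and at 1113 and 1026 TPM beside Oli-neu (0.44, SE 0.15, limma adjusted p = 0.304). Rps6, the substrate of the S6 kinases, was at 434 and 435 TPM alone and at 556 and 588 TPM beside Oli-neu (0.40, SE 0.15, limma adjusted p = 0.312). Each gene row of these 5 was higher in both co-culture libraries. With copies added, the log2 fold changes were 0.30 for Rps12, 0.45 for Rpl9, 0.21 for Rps23, 0.51 for Rpl39 and 0.09 for Rps6, so those of Rps12, Rps23 and Rps6 moved by more than 1.5 times. When only pseudogenes named after a member were added, the value of Rps12 turned to -0.68. When library 1 of MB1 alone was left out, Rpl35 passed with a log2 fold change of -1.82 (limma adjusted p = 0.0428), and 68 genes passed in all. That test takes the lone remaining library to vary like the other group. The remaining one, library 2 of MB1 alone, had more than 2 times the Rpl35 level of any other MB1 library.

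By place in the ribosome, the gene rows of the 4 stalk genes, Rplp0, Rplp1, Rplp2 and Rpl12, which recruit the translation factors, were all lower beside MB1 and beside D341 in Oli-neu (medians -0.20 and -0.22) and all higher in MB1 beside Oli-neu (median 0.14), with 0 called. Of all 12280 genes, 7685 were lower in Oli-neu beside MB1 and 9313 beside D341, and 66 of 83 members were higher in MB1. Rplp2 was at 2212 and 1636 TPM in Oli-neu alone and at 1530 and 1487 TPM beside D341, and both co-culture libraries were below both grown alone. Rplp0 was at 1725 and 1447 TPM alone and at 1266 and 1264 TPM beside D341, likewise without overlap. Rplp1 did not separate, at 3485 and 2848 TPM alone and 2937 and 3133 TPM beside D341. Rpl12 had 101 and 115 TPM on its gene row in Oli-neu alone and 8245 and 8194 TPM with its copies, so that the row held 1.09% of the sum in Oli-neu. Its sum went the other way from its row, to 9629 and 9024 TPM beside MB1 and 11225 and 8816 TPM beside D341, both above Oli-neu alone (log2 fold changes 0.18 and 0.28), and its fold change in MB1 was 0.03 on the sum. With copies of at least 300 bases only, the sum of Rpl12 was 2983 and 2173 TPM alone and 3175 and 2254 TPM beside D341, which overlap.

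Rpl5 and Rpl11, the proteins of the 5S particle, differed in level, and by less with copies added than on the gene rows. Rpl5 was at 43.4 and 34.3 TPM in Oli-neu alone and at 65.0 and 47.6 TPM in MB1 alone, and with copies at 1454 and 1388 TPM in Oli-neu alone and 1024 and 1131 TPM in MB1 alone. Rpl11 with copies was at 4316 and 4230 TPM in Oli-neu alone and 2420 and 2573 TPM in MB1 alone. Its gene row held 62.25% of the sum over the Oli-neu libraries. Of the 5 proteins on the exit side of the messenger RNA, 2 were higher and 3 lower in Oli-neu beside MB1, and 4 were higher and 1 lower in MB1 beside Oli-neu. Rps27a, which is made as a fusion with ubiquitin, was at 1231 and 971 TPM in Oli-neu alone, 826 and 886 TPM beside D341, 635 and 659 TPM in MB1 alone and 808 and 733 TPM beside Oli-neu. In Oli-neu the libraries beside D341 were below those grown alone, and in MB1 those beside Oli-neu were above. With copies added the MB1 groups of Rps27a overlapped, at 1711 and 2340 TPM alone and 2361 and 2191 TPM beside Oli-neu.

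The 4 ribosomal proteins named otherwise were compared in the same way. Rack1, a scaffold on the small subunit, was at 3352 and 3166 TPM in Oli-neu alone and at 1700 and 1487 TPM in MB1 alone, and at 1876 and 1769 TPM in MB1 beside Oli-neu. In MB1 beside Oli-neu 3 of the 4 were higher, with a median of 0.19, and none was called.

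Genes that build ribosomes were mostly lower in MB1 beside Oli-neu, as were 8793 of all 12407 genes (median -0.17, 15.7% with an unadjusted p under 0.05). Of 30 tested ribosome assembly genes, 2 were higher and 28 lower beside Oli-neu (median -0.46, 15 with an unadjusted p under 0.05, 0 called), and of 20 RNA polymerase I genes, 4 were higher and 16 lower (median -0.31). Nop56, a core protein of the particles that methylate ribosomal RNA, had a log2 fold change of -0.80 (SE 0.14, limma adjusted p = 0.282), and Polr1a, the largest subunit of RNA polymerase I, had -0.72 (SE 0.15, adjusted p = 0.282). Mitochondrial ribosomal proteins, 78 tested, were 24 higher and 54 lower (median -0.14), a share near that of all genes. Translation elongation and other factors with TOP tracts, 15 tested, were 9 higher and 6 lower (median 0.03). In Oli-neu beside D341, where 9313 of all 12280 genes were lower (median -0.16), assembly genes were 2 higher and 28 lower (median -0.28) and the TOP factors 2 higher and 13 lower (median -0.25). These lists were compared by counts and medians only.

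Sums of cell type markers differed between groups of both lines as well. The 9 oligodendrocyte lineage markers summed to 992 to 1163 TPM in MB1 alone and to 673 to 807 TPM beside Oli-neu, with 2 and 3 of them under 1 TPM. The 6 astrocyte markers summed to 624 to 722 TPM alone and to 743 to 756 TPM beside Oli-neu, with Aqp4 under 1 TPM in both groups. The granule lineage markers summed to 133 to 150 TPM alone and to 168 to 195 TPM beside Oli-neu, with 5 and 4 of the 9 under 1 TPM. The endothelial and mural markers summed to 1.18 to 1.60 TPM and to 2.87 to 4.12 TPM. Of these 6 markers, 5 were under 1 TPM in both groups. The neuron markers overlapped, at 87.1 to 146 TPM alone and 65.6 to 136 TPM beside Oli-neu. In Oli-neu the oligodendrocyte lineage markers summed to 628 to 699 TPM alone and 618 to 720 TPM beside MB1. Beside D341 they summed to 555 to 582 TPM. The Oli-neu astrocyte sums were 965 to 1003 TPM alone, 1074 to 1183 TPM beside MB1 and 924 to 939 TPM beside D341. Granule lineage and neuron sums in Oli-neu were also lower beside D341 than alone, without overlap. In both of these groups 6 of the 9 granule lineage markers were under 1 TPM. Of the 6 neuron markers, 4 were under 1 TPM alone and 3 beside D341. The 6 microglia markers were all under 1 TPM in every group. The part of these values in the result was not tested.

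The members differed most between Oli-neu libraries by their number, a difference no comparison of the design asks for. It was looked at after the values had been seen. In the fit with the library number as a term, 13 members passed limma's adjusted threshold between libraries 2 and 1, 8 higher (2.14% of all genes) and 5 lower (1.19% of all genes) in number 2. All 3 libraries numbered 2 were above all 3 numbered 1 in 13 members (9.14% of all genes) and below in 34 members (11.6% of all genes). A gene split in this way cannot separate 2 Oli-neu groups without overlap. The counts without overlap in the Oli-neu comparisons carry this limit, more so for the members than for all genes. So do the counts at an unadjusted p, since the fits behind them left the difference by number in their SEs. The labels give the numbers as biological replicates and name no day or batch. With copies added, 7 of 80 members passed, beside 3.32% of all genes.

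Rps27 was the extreme case. Its gene row was at 13.6, 15.1 and 21.7 TPM in the 3 Oli-neu libraries numbered 1 and at 2242, 891 and 1004 TPM in those numbered 2 (log2 difference 6.18, SE 0.37, limma adjusted p = 0.00458). In MB1 it was at 12.2 and 1196 TPM alone and at 352 and 944 TPM beside Oli-neu, so 2 cultures of 1 group differed by about as much. With its copies, which include Gm17241, Rps27 summed to 2630, 5986 and 5170 TPM in the Oli-neu libraries numbered 1 and to 5067, 3559 and 4007 TPM in those numbered 2, and these overlap. The fold change of Rps27 in MB1 beside Oli-neu, 2.20 on the log2 scale (SE 2.14, adjusted p = 0.606), and that in Oli-neu beside MB1, -0.59 (SE 3.38, adjusted p = 0.999), carry that spread. In MB1 without library 2 of MB1 alone the value was 5.45, and with copies added it was 0.33.

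Other members also differed by number. Rpl35 was at 1392, 858 and 855 TPM in the libraries numbered 1 and at 2839, 3001 and 2913 TPM in those numbered 2 (log2 difference 1.53, SE 0.18, limma adjusted p = 0.028), with 99.6% of its sum on the gene row in Oli-neu. In MB1, library 2 of MB1 alone had 2408 TPM, and the 3 others had 654 to 684 TPM. Rpl22l1, a paralogue of Rpl22, was at 455, 366 and 336 TPM in number 1 and 963, 755 and 725 TPM in number 2 (1.08, SE 0.08, adjusted p = 0.00766), and at 2128 TPM in library 2 of MB1 alone against 463 to 556 TPM in the 3 others. Rpl23a went the other way, at 7558, 6882 and 7177 TPM in number 1 and 3474, 3100 and 2670 TPM in number 2 (-1.23, SE 0.10, adjusted p = 0.0103). With copies its values were 7600, 6916 and 7223 TPM against 6383, 6608 and 6354 TPM, which are much closer.

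**Figure D3:**
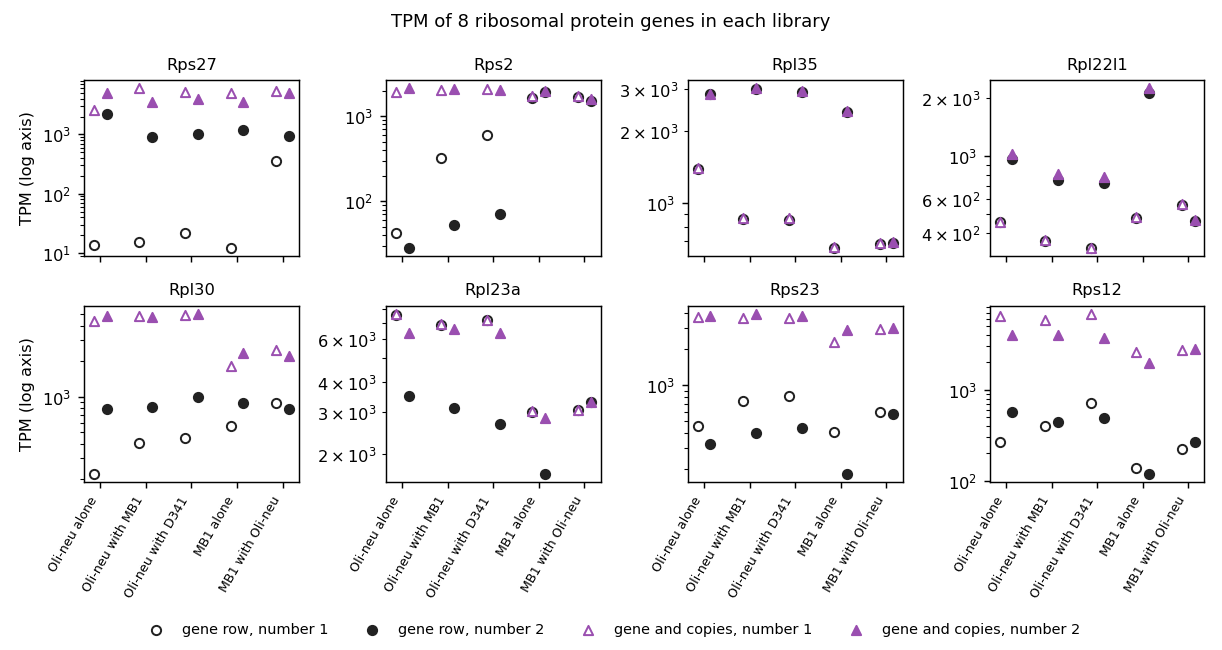
TPM on a log axis (vertical) of 8 members in the 5 groups (horizontal), with open symbols for library 1 and filled symbols for library 2, circles for the gene row and triangles for the gene with its copies summed. Rps27 circles lie at 13.6 to 21.7 TPM in Oli-neu library 1 and at 891 to 2242 TPM in library 2, whereas its triangles overlap, and Rpl35 circles and triangles coincide.

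Library 2 of MB1 alone stood apart among the 4 MB1 libraries in the members. There, 4 members were more than 2 times the highest of the others (Rpl10a, Rpl22l1, Rpl27a and Rpl35), and 3 were under 50% of the lowest (Rpl27, Rpl31 and Rps23), beside 1.51% and 1.53% of all genes. In the other 3 libraries 0 members were above that bound, and 1 was below it, Rps27 in library 1 of MB1 alone. Of the members named for library 2, all but Rpl10a differed in the same direction between Oli-neu libraries numbered 2 and 1. Rpl10a was lower in the Oli-neu libraries numbered 2 (log2 difference -0.37). Neither MB1 library beside Oli-neu stood apart in this way, so the 2 MB1 groups were not balanced for it. The part of this in the MB1 comparison was not tested. Rpl27 was at 1441 and 717 TPM in MB1 alone and at 1601 and 1622 TPM beside Oli-neu. Without library 2 of MB1 alone the log2 fold change of Rps23 beside Oli-neu was 0.51, against 1.09 with it.

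Between the lines grown alone, most members were lower in MB1, while most other genes were higher. Of 80 coding members with at least 1 TPM in 2 of the 4 libraries, 66 were lower and 14 higher in MB1 alone, with a median difference of -0.56 on the log2 scale. Over all 12911 genes passing the same filter the median was 0.35, and 32.2% were lower in MB1. The 2 directions are not independent, because each library sums to the same total and a smaller share of some genes raises the rest. Members and copies together held a mean of 40.2% of TPM in Oli-neu alone and 24.9% in MB1 alone. How much of the median over all genes follows from this was not tested. With copies added, 72 members were lower and 8 higher, with a median of -0.65. The level ranked alike in the lines (Spearman's rho 0.79 across 80 genes, 0.91 with copies added, as a description since both lines share transcript lengths and copies). The largest differences in the lower direction were Rpl37 (-1.67), Rps12 (-1.59) and Rpl38 (-1.54).

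The largest differences in the other direction were Rps3a3 and Rps2. Rps3a3 lay between 0.355 and 3.69 TPM in the 6 Oli-neu libraries and between 416 and 492 TPM in the 4 MB1 libraries, a difference of 7.57 on the log2 scale between the lines grown alone. Rps3a1, the gene from which it was copied, was at 1191 and 843 TPM in Oli-neu alone and at 632 and 716 TPM in MB1 alone. With its copies, Rps3a3 among them, Rps3a1 summed to 1792 and 1315 TPM in Oli-neu alone and 1434 and 1534 TPM in MB1 alone, which overlap. Rps2, a small subunit protein by the messenger RNA entry, was at 42.9 and 28.4 TPM in Oli-neu alone, 326 and 53.2 TPM beside MB1 and 603 and 70.3 TPM beside D341, against 1497 to 1937 TPM in MB1. With its copies it summed to 1909 to 2120 TPM in Oli-neu and 1588 to 1969 TPM in MB1, so the lines overlapped and the difference of 5.63 on the gene row was not seen on the sum. The same holds for its fold change of 2.53 beside D341 (SE 1.28, limma adjusted p = 0.42), which was 0.04 with copies added.

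Among the members higher in MB1 on both scales were Rps27l, Rpl7l1 and Rps4x. Rps27l, which p53 is known to induce, was at 265 and 241 TPM in Oli-neu alone and at 917 and 678 TPM in MB1 alone, a difference of 1.64, and of 1.62 with copies. Rpl7l1 was at 35.2 and 28.8 TPM in Oli-neu alone and 68.5 and 76.1 TPM in MB1 alone, a difference of 1.16 on both scales. Its counterpart Rpl7 was at 3025 and 2471 TPM in Oli-neu alone and 1816 and 1674 TPM in MB1 alone. Rps4x, on chromosome X, was higher in MB1 alone (1124 and 1088 TPM) than in Oli-neu alone (867 and 685 TPM), by 0.52 on both scales. Rpl22 was at 1914 and 1691 TPM in Oli-neu alone and 1030 and 870 TPM in MB1 alone. Rpl3 was at 868 and 568 TPM in Oli-neu alone and 1048 and 1312 TPM in MB1 alone on the gene row, and with copies at 1619 and 1241 TPM and at 1213 and 1316 TPM, which overlap. Across co-cultures, the 12 paralogues tested were 2 higher and 10 lower in Oli-neu beside MB1, 2 higher and 10 lower beside D341, and 8 higher and 4 lower in MB1 beside Oli-neu, with 0 called.

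**Figure D4:**
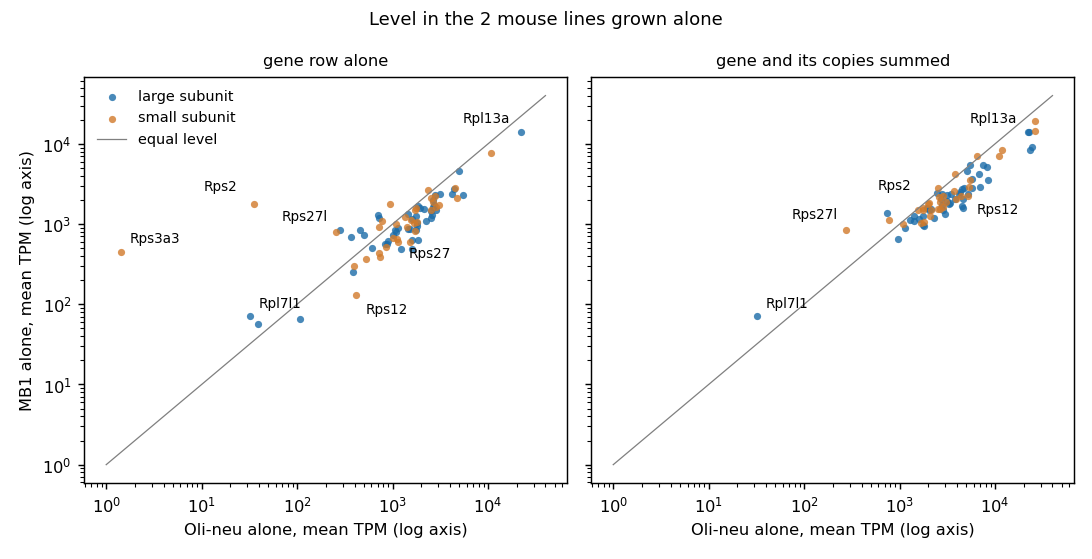
Mean TPM in MB1 alone (vertical, log axis) against mean TPM in Oli-neu alone (horizontal, log axis) of the members with at least 1 TPM in both, on the gene row (left) and with copies summed (right), with a grey line of equal level. Rps2 and Rps3a3 lie far above the line on the left, and on the right Rps2 falls among the other members and Rps27l and Rpl7l1 remain above the line.

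The 83 coding members lie on 19 chromosomes, 14 of them on chromosome 7 and 4 on chromosome X. Their coding sequences run from 138 to 1257 bases, with a median of 468, over 1 to 10 exons. Across the 80 coding members with at least 1 TPM in 2 Oli-neu libraries, the highest library was a median of 1.51 times the lowest on the gene row and 1.38 times with copies summed. The ratio was over 2 in 15 members on the gene row and in 8 with copies summed, and in 10 and 6 members across the MB1 libraries. In 23 of the 80 members the gene row held under 25% of the sum with copies in Oli-neu, and in 36 it held at least 75%. The median absolute log2 difference between library numbers was 0.22 in the 14 members with under 25% of their stretches unique, 0.35 in the 50 between 25% and 75%, and 0.20 in the 16 with at least 75%. Differences by number above 1 occurred in 2, 6 and 0 of these members.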

How the data were processed

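RNA was measured in 14 libraries, and the 10 mouse libraries were used. The authors deposited TPM per gene in a table for each line. Per the submitters' processing notes, the tools were Salmon 0.14.1, DESeq2 1.22.2, MultiQC 1.7 and FastQC 0.11.8 and the mouse build was GRCm38. Which tool made which value, and the annotation release, are not given in the sources used here. The files hold no counts.

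The members and the lists were chosen with earlier results of these data known. Symbols came from GENCODE M21 (35099 of 35288 identifiers matched). A gene was tested where 2 or more libraries of its line reached 1 TPM. Values were put on the log2(TPM + 1) scale, which understates changes of low genes, and fitted by limma 3.58.1 (R 4.3.3) with its trend option. The 6 Oli-neu libraries shared 1 fit and the 4 MB1 libraries another. Tests were two-sided, with Benjamini-Hochberg adjustment over all genes and a threshold of 0.05, and the fit was first tested on simulated data. As each group has 2 libraries, p-values measure only the spread between these libraries, which may be technical.

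Members were named by these rules: per line and subunit the 4 highest and 4 lowest levels, per comparison and subunit the 4 highest and 4 lowest fold changes, the smallest p of each comparison, the paralogue, stalk, 5S particle, S6 kinase substrate and ubiquitin fusion lists, and the 4 largest line differences in each direction. The text gives values for part of them, and 3 genes that the rules name are not reported here. Members described by library number, by an unadjusted p or with a pseudogene sequence were chosen after their values were seen. Pseudogenes were matched to members with blastn 2.17.0 (90% identity over 50% of the copy), and sums with copies, the number term, the crossed pairing and the rescaled counts without overlap were added after seeing the data. The SEs and p-values of the comparisons between cultures came from fits without pairing. Library numbers, taken from the labels, entered only the number term and alternative fits with a replicate block. Same-numbered deviations in Oli-neu correlated at 0.59 to 0.62 over 12280 genes. Other alternatives were the pseudocount, the filter, median-ratio scaling, coding genes alone, removal of mitochondrial genes, named pseudogenes added, no trend, the replicate block and each library left out.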

Additional observations from a re-analysis of the deposited data

Results flagged for a closer look

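Rps3a3 was below both libraries of Oli-neu alone in both Oli-neu libraries beside MB1, and above both libraries of MB1 alone in both MB1 libraries beside Oli-neu. The log2 fold changes of the 2 lines differed by 0.607. The difference was not tested, and in Oli-neu the gene lay at 0.629 to 2.08 TPM in these 4 libraries.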

How the results depend on the processing

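No ribosomal protein gene passed limma's adjusted threshold in 67 of 68 alternatives of the 4 comparisons, the exception being Rpl35 in MB1 without library 1 of MB1 alone. With the replicate block, or paired analysis, 0 members and 0 genes passed in every comparison, and no other call changed. Same-numbered libraries deviated together in Oli-neu (0.86 to 0.93 over the members). In MB1 the correlation was -0.12 over all genes and 0.45 over the members, and crossing the numbers also gave 0 and 0. Of 252 alternatives for the single genes named by their p, 251 kept sign and side; Rps12 in MB1 beside Oli-neu was -0.68 with named pseudogenes added. Over all 80 members, however, the sign turned between gene row and sum with copies in 12 beside MB1, 17 beside D341, 14 between the co-cultures and 6 in MB1. Rps29 was one, at 0.23 and 0.27 on the row and -0.34 and -0.38 on the sum beside MB1 and D341. These sums take copies of any length. With copies of at least 300 bases only, Rps29 stayed higher in both co-cultures. It was then at 1227 and 1477 TPM alone, 1626 and 1540 TPM beside MB1 and 1651.5 and 1598 TPM beside D341. Leaving out 1 library gave 0 to 1 members and 0 to 68 genes called in MB1, with medians of 0.075 to 0.18 in the large and 0.14 to 0.20 in the small subunit. In Oli-neu it gave 0 to 2 genes beside D341, with small subunit medians of -0.072 to 0.11, and small subunit medians of -0.12 to 0.10 beside MB1. Genes called, where different from 0, beside MB1 were 3 with a pseudocount of 0.1, 1 without a filter, 2 with median-ratio scaling, 2 with coding genes alone, 1 without the trend, and 2 with copies added (2 for copies of at least 300 bases). Beside D341 they were 3 without a filter and 1 with coding genes alone. Between the co-cultures they were 6 without a filter, 1 with coding genes alone and 1 without the trend, and in MB1 5 with coding genes alone. Under median-ratio scaling the medians were 0.24 and 0.19 beside D341, 0.17 (small) between co-cultures, and 0.37 and 0.37 in MB1. In MB1 the small subunit median was 0.14 with named pseudogenes, 0.14 with copies and 0.15 with copies of at least 300 bases. The summed share was, for Oli-neu alone, beside MB1, beside D341, MB1 alone and MB1 beside Oli-neu, 25.7%, 25.4%, 26.5%, 15.4% and 16.9% over coding genes, 23.1%, 23.1%, 23.6%, 14.6% and 15.7% with named pseudogenes, and 40.2%, 40.6%, 41.3%, 24.9% and 27.4% with copies. Without mitochondrial genes it was 12.75% in MB1 alone and 13.9% beside Oli-neu, and with median-ratio scaling 11.0% and 13.6%. The causes were not tested. Depth is unknown, so low levels carry no counting error here.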
